A study of Mus musculus with 8 samples.

Results

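A search for mature Ccr7 dendritic cells among CD45+ cells of the mouse brain returned 518 of 119053 cells within the quality limits, 43 of them from saline libraries and 475 from LPS libraries. Cells were chosen by their counts of unique molecules (UMIs): at least 4 UMIs of Ccr7, Fscn1, Ccl22 and Ccl17 together from at least 2 of these genes, at least 5 UMIs of H2-Aa, H2-Ab1 and Cd74 together, and none of Cd79a or Cd3e. These 9 genes chose the cells and are therefore only described. The cells are called gated cells here, because the counts outside the rule did not bear the name out for all of them. In the LPS libraries 271 of the 475 gated cells also carried at least 3 UMIs of the microglial genes P2ry12, Tmem119 and Sparc.

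The study asked how immune cells in and around the brain respond to peripheral endotoxin. Male C57Bl/6J mice, 5 to 6 months old by their labels, were given either saline or 15000000 EU/kg of lipopolysaccharide (LPS, a bacterial endotoxin) once by intraperitoneal injection, and the brains were taken 24 hours later. The study's methods give a lower age range than the labels. Brains were not perfused, so that cells of the vessels were kept, and dissociation was done with DMSO as the vehicle or with the inhibitors actinomycin D, triptolide and anisomycin, which block transcription and translation. Cells were enriched with CD45 magnetic beads and captured by PIPseq, which templates droplets around barcoded beads. Each of the 4 combinations of injection and dissociation had 2 libraries of 1 mouse each, numbered 1 and 2 by batch, and values below run DMSO 1, DMSO 2, inhibitors 1, inhibitors 2 within saline and within LPS. A p-value therefore sets a difference against the spread between libraries of different mice. Where a test had no covariate or block, that spread also holds batch and dissociation. Where the mouse was a block, it is the spread of differences within mice.

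Dendritic cells take up antigen and present it to T cells. When they mature they switch on CCR7, the receptor for the chemokines that guide them into lymph vessels and nodes, and fascin (Fscn1), which bundles actin into the long dendrites of the mature cell. They also release CCL17 and CCL22, which attract T cells that carry CCR4, and they display peptides on class II molecules, whose chains H2-Aa and H2-Ab1 are chaperoned by Cd74. Cd209a, a lectin of the DC-SIGN family, marks a group of conventional dendritic cells.

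The name of the gated cells was checked with 12 markers of mature dendritic cells that the rule did not use, and with the microglial UMIs. Gated cells with under 3 microglial UMIs, 204 in the LPS libraries and 24 in the saline libraries, are called microglia-poor, and the other 271 and 19 microglia-rich. In the LPS libraries the microglia-poor cells had a median of 31 UMIs of the 4 selecting genes among 2804 UMIs per cell, and the microglia-rich cells a median of 5 among 8691. Ccr7 itself was detected in 82.8% of microglia-poor and 11.8% of microglia-rich LPS cells. Fscn1 and Ccl17 were the only selecting genes in 154 of the 271 microglia-rich cells and in 7 of the 204 microglia-poor cells. Fscn1 was also present in 41.0% to 46.3% of all other LPS cells with at least 5 microglial UMIs, a reference set of microglia with median depths of 5063 to 5864 UMIs per library, while Ccl17 was present in 4.12% to 5.21% and Ccl22 in 1.11% to 1.93% of them. In the same reference set of the saline libraries Fscn1 was more frequent, at 57.0% to 66.4%, and Ccl17 (0.0612% to 0.157%) and Ccl22 (0.0567% to 0.0923%) were rarer. Part of the gated LPS cells thus met the rule with a gene that is common in microglia.

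Each of the 12 outside markers was detected in a larger share of microglia-poor than of microglia-rich cells in the LPS libraries. Cacnb3, a calcium channel subunit, was detected in 39.2% of microglia-poor and 1.48% of microglia-rich cells, against 0.259% to 0.333% of the reference microglia. Cd200, an inhibitory ligand for myeloid cells, was detected in 74.0% and 4.80%, against 2.18% to 2.91%. Cd83, a surface marker of maturation, was detected in 56.9% and 13.3%, against 5.31% to 14.2%. All 3 genes were more frequent in microglia-poor cells than in the reference, although the poor cells were the shallower ones. In microglia-rich cells Cd83 was within the range of microglia, but it was the only one of the 12 markers that was. All others were above that range, for example Traf1 at 32.5% against 6.74% to 16.2% and Il4i1 at 23.2% against 8.14% to 10.8%. Microglia-rich cells were also deeper (median 8691 UMIs) than the reference (5063 to 5864), and the part of depth was not tested. Ccl5, which is broadly induced by LPS, was detected in every microglia-poor cell but also in 75.3% to 83.3% of the reference. At least 3 of the 12 markers were found in 89.2% of microglia-poor and 49.8% of microglia-rich cells. In the saline libraries the shares were 87.5% and 63.2%. With saline, Cd274 (12.5% against 21.1%) and Pdcd1lg2 (0% against 10.5%) were less frequent in microglia-poor than in microglia-rich cells. Relb was about equal (58.3% and 57.9%), and the other markers were more frequent in microglia-poor cells. Cd83 was in 68.4% of microglia-rich saline cells, against 21.5% to 33.9% of the saline reference microglia. Summed over the 12 markers, the level was 29565 to 33480 CPM (UMIs scaled to a total of 1000000) in the microglia-poor cells of the LPS libraries, 8855 to 10533 in the microglia-rich cells and 3248 to 4978 in the reference microglia. In the saline libraries it was 19772 to 25324 in 3 microglia-poor pools, 456 and 13890 in 2 microglia-rich pools and 399.6 to 959.7 in Cd209a cells. Most of these sums was Ccl5, apart from the Cd209a cells and the lower microglia-rich saline pool. The other 11 markers summed to 4686 to 7318 CPM in microglia-poor, 237 to 523 in microglia-rich and 202 to 288 in reference cells of the LPS libraries. With saline they summed to 4290.2 to 8154 in microglia-poor, 456 to 3606 in microglia-rich and 326 to 743 in Cd209a cells. By these markers the microglia-poor cells carry the name when set against microglia, and with saline also against Cd209a cells. Macrophages and monocytes were not part of this check. For the microglia-rich cells the share with at least 3 markers has no counterpart here in the reference microglia. Those also held Tmem123, another of the 12, in 26.5% to 40.2% of LPS cells, against 50.6% of microglia-rich cells.

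**Figure D1:**
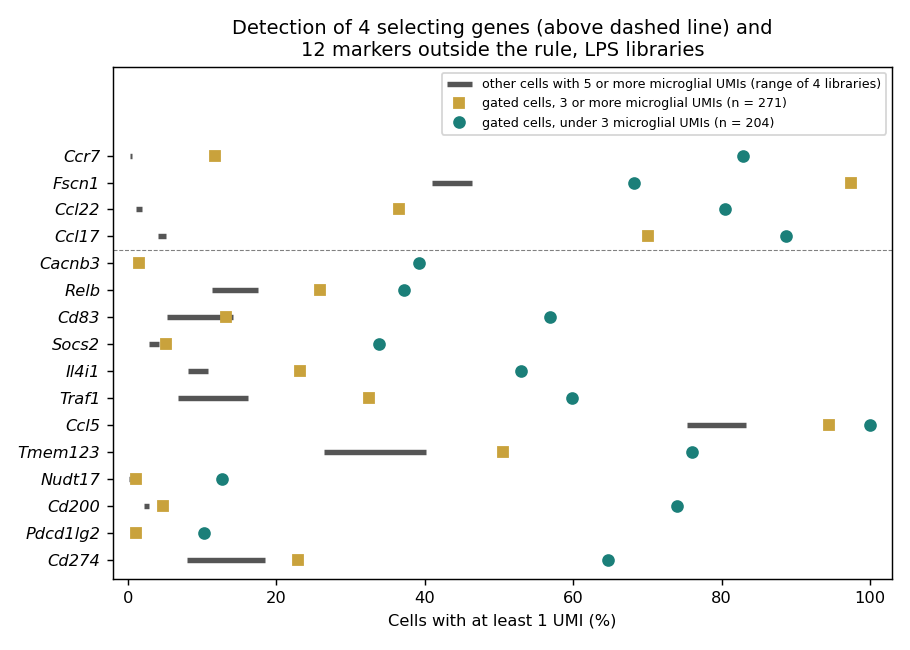
Share of cells with at least 1 UMI (x axis, %) of the 4 selecting genes, above the dashed line, and of 12 markers outside the rule, in the LPS libraries. Circles are 204 microglia-poor gated cells, squares 271 microglia-rich gated cells, and bars the range over 4 libraries of other cells with at least 5 microglial UMIs, in which Ccr7 lies between 0.330% and 0.578% against 82.8% for the circle.

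Markers of other cell types varied between the pools of microglia-poor cells. The 10 microglial markers, 3 of which define the split and so fix part of the difference, summed to 1388 to 5680 CPM in the LPS libraries, with Gpr34 at 0, against 24392 to 31242 CPM in the reference microglia and 20421 to 26900 in the microglia-rich cells. With saline they summed to 1380.5 to 4228 CPM in microglia-poor cells and 46463 to 49835 in the reference. Of the B-cell markers, Ms4a1 was at 0 in the microglia-poor LPS cells, but Ighm reached 4.69, 10751, 20.7 and 69.6 CPM in the 4 LPS libraries, so that LPS DMSO 2 stood far above the rest. In the saline pools erythrocyte markers reached 1989.7 CPM, macrophage markers 808 and T-cell and NK markers 401, against highest sums of 48.3, 431 and 64.2 CPM with LPS. Neutrophil markers reached 2200.3 CPM in 1 LPS library and lay at 28.1 CPM in the lowest. The dendritic cell genes Flt3, Zbtb46 and Itgax summed to 85.7 to 206 CPM with LPS and to 234 to 259 CPM with saline in the microglia-poor cells. They summed to 276 to 400 CPM in saline Cd209a cells and to 6.26 to 8.34 CPM in the reference microglia of the LPS libraries. In microglia-poor LPS cells Flt3 was detected in 24.0%, Zbtb46 in 8.33%, Itgax in 4.90% and the macrophage marker Mrc1 in 13.7%. With saline these shares were 16.7%, 16.7%, 20.8% and 8.33%. None of the 475 LPS gated cells had a UMI of Xcr1 or Clec9a, genes of type 1 conventional dendritic cells, which allows a share of up to 0.632% of cells with a UMI of either. Of the 43 saline gated cells 3 had a UMI of Clec9a (6.98%), 2 of them microglia-poor, and 1 had a UMI of Xcr1. Such limits and the counting intervals below cover counting error only. Doublet scores were among the top 8% of their library in 5.39% of microglia-poor and 17.7% of microglia-rich LPS cells. The share of UMIs that free RNA would give if it were the only source of microglial transcripts was 6.36% to 16.2% in the microglia-poor LPS pools and 59.5% to 78.2% in the pools of all gated LPS cells. The part of doublets and of free RNA in the microglia-rich cells was not tested.

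The limits of the rule fell where cells were dense in the LPS libraries. Among LPS cells, 95 members had exactly 4 UMIs of the selecting genes and 145 cells just outside had 3, while among saline cells there were 4 of each. At the class II limit, 62 LPS members had exactly 5 UMIs of H2-Aa, H2-Ab1 and Cd74, and 87 cells just outside had 4. A further 468 LPS cells and 45 saline cells met the selecting genes but had under 5 class II UMIs, and Ccr7 was detected in 181 and 30 of these. Of the same cells, 164 with LPS and 2 with saline had under 3 microglial UMIs. B or T cell genes removed 18 LPS and 33 saline cells. Of the 160 LPS members with 4 or 5 selecting UMIs, 10.6% had Ccr7 and 88.8% were microglia-rich, and of the 156 members with at least 20, 88.5% had Ccr7 and 12.8% were microglia-rich. Ccr7 is part of this sum, so part of its difference was fixed in advance. Median depth also differed, at 7910.5 UMIs near the limit and 3062.5 far above it, and the part of depth was not tested. Among saline members, 22.2% of the 9 with 4 or 5 selecting UMIs and 58.8% of the 17 with at least 20 had Ccr7. Of these saline members 55.6% and 35.3% were microglia-rich.

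Gated cells were about 10 times more frequent in the LPS libraries. They numbered 10, 13, 10 and 10 in the saline libraries and 119, 91, 109 and 156 in the LPS libraries, which is 7.56, 9.70, 6.21 and 6.81 and 69.8, 75.6, 71.8 and 89.8 per 10000 cells. The lowest LPS library lay far above the highest saline library. The means were 76.8 ± 9.05 (LPS) and 7.57 ± 1.52 (saline, SD over 4 libraries each), a 10.1-fold difference (exact two-sided permutation test, p = 0.0286, the smallest value that 4 libraries against 4 can give). With labels exchanged only within a batch, or only within DMSO and inhibitor libraries, the p was 0.0556, again the smallest possible.

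The microglia-poor cells were also more frequent with LPS. There were 6, 8, 2 and 8 of them in the saline libraries and 68, 31, 45 and 60 in the LPS libraries, or 4.54, 5.97, 1.24 and 5.45 and 39.9, 25.7, 29.6 and 34.6 per 10000 cells. Groups did not overlap, and the means of 32.5 ± 6.12 and 4.30 ± 2.12 per 10000 differed 7.55-fold (exact two-sided permutation test, n = 4 each, p = 0.0286). The limit of 3 UMIs rests on genes that were themselves lower in microglia with LPS. P2ry12, Tmem119 and Sparc together were at 10349 to 10709 CPM in the reference microglia of the saline libraries and at 2489 to 2896 CPM in those of the LPS libraries, so at equal depth a microglial cell would hold fewer of these UMIs with LPS. The part of this in the difference was not tested.

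For all gated cells, microglia-rich ones included, the fold was 7.87 where Ccr7 had to be among the detected genes. LPS cells held more UMIs, with medians of 4149 to 4763 per library against 2207 to 3161 with saline. After cells of at least 1500 UMIs were thinned to 1500 and the 15666 shallower cells (9130 saline, 6536 LPS) were left out, the fold over all gated cells was 4.23 (20.8 ± 5.24 against 4.90 ± 1.29 per 10000, exact two-sided permutation test, n = 4 each, p = 0.0286). Thinning was not done for the microglia-poor cells alone. UMIs per cell moved with the treatment, and their remaining part in the difference was not tested.

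**Figure D2:**
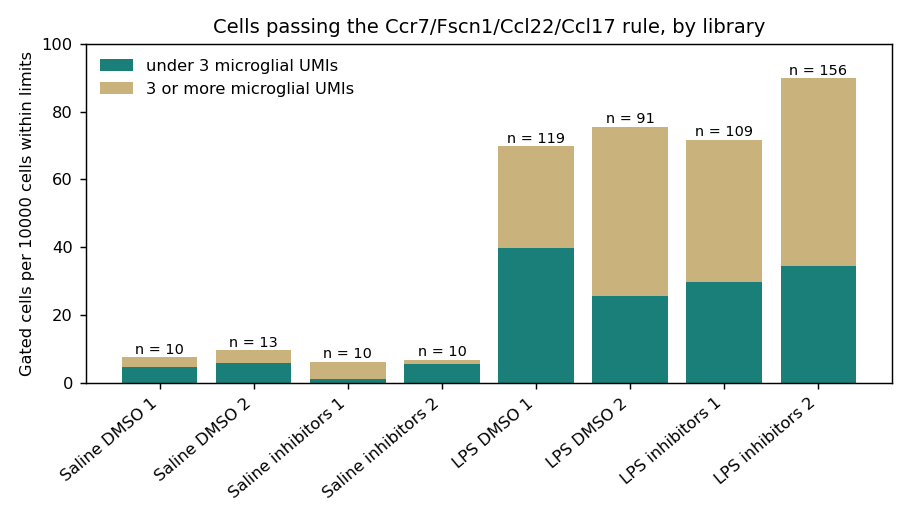
Gated cells per 10000 cells within the quality limits (y axis) in each of the 8 libraries, split into microglia-poor (green) and microglia-rich (sand) cells, with the number of gated cells above each bar. Every LPS bar stands at 69.8 or higher and every saline bar at 9.70 or lower, and the green parts run from 25.7 to 39.9 with LPS and from 1.24 to 5.97 with saline.

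Cells of the Cd209a gate, with at least 2 UMIs of Cd209a and 20 of class II genes, went the other way. They numbered 86, 75, 91 and 106 in the saline libraries and 0, 0, 1 and 2 in the LPS libraries. Cells that also passed the Ccr7 gate, 6 with saline and 2 with LPS, were counted as gated cells, which left 81, 74, 91 and 106 Cd209a cells with saline and 0, 0, 1 and 0 with LPS. Cells of both gates together were therefore 11.1% ± 2.73 gated Ccr7 cells in the saline and 99.8% ± 0.455 in the LPS libraries (SD over 4 libraries each, exact two-sided permutation test, p = 0.0286). A count of 0 allows up to 1.76 and 2.49 Cd209a cells per 10000 in LPS DMSO 1 and LPS DMSO 2, against 61.2, 55.2, 56.5 and 72.2 per 10000 in the saline libraries. This gate rests on a single gene. A search by Flt3, the cytokine receptor of dendritic cells, with at least 20 class II UMIs found 72, 38, 99 and 59 cells with saline and 25, 7, 13 and 12 with LPS. Those cells were fewer with LPS in every library, but they were not absent. Gated cells were not removed from this search. Flt3 was detected in 56 gated LPS cells and 10 gated saline cells of any class II count. How many of these were among the cells of the Flt3 search was not counted. With the class II limit of the Cd209a gate at 5 and B or T cell genes barred from it, gated cells were still 99.8% ± 0.455 of both gates with LPS and 12.1% ± 3.44 with saline. The part of that limit in the Flt3 search was not tested.

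Over all 8 libraries, DMSO and inhibitor libraries did not separate in the frequency of gated cells. The means were 40.7 ± 37.1 per 10000 with DMSO and 43.7 ± 43.5 with inhibitors (SD, n = 4 each), a difference of -3.01 (exact two-sided permutation test, p = 0.914, and 0.833 with labels exchanged within saline and within LPS libraries). Each arm held 2 saline and 2 LPS libraries, so these SDs include the difference between the treatments, and a small difference between the arms could be missed. Within saline both DMSO values (7.56 and 9.70 per 10000) lay above both inhibitor values (6.21 and 6.81). Within LPS the values overlapped (69.8 and 75.6 against 71.8 and 89.8).

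The selecting genes themselves, given as a description, were at higher levels in microglia-poor than in microglia-rich cells of the LPS libraries. In the LPS libraries Ccr7 reached 4125, 2849, 2512 and 2554 CPM in microglia-poor cells and 31.4 to 104 CPM in microglia-rich ones, and in the microglia-poor cells of saline DMSO 1, saline DMSO 2 and saline inhibitors 2 it reached 3233, 1505 and 2675 CPM. Saline inhibitors 1 held only 2 such cells and was not pooled. Ccl17 reached 9544, 5080.1, 7605 and 9422 CPM with LPS and 435, 4882 and 2157 with saline, while in free RNA of the LPS libraries, measured in barcodes of 1 to 99 UMIs, it was 44.8 to 74.8 CPM and in microglia-rich LPS cells 232 to 472 CPM. All 4 LPS values of Ccl17 were above the highest saline value, and those of Ccr7 overlapped the saline values. Ccl22 was more variable, at 3535, 2981, 1380.2 and 2083 CPM with LPS and 187, 3009 and 1855 with saline, against 123 to 449 CPM in microglia-rich LPS cells. Fscn1 was at 851 to 1818 CPM with LPS and 1617 to 2329.6 with saline in microglia-poor cells, and at 351 to 521 CPM in microglia-rich LPS cells. It was detected in fewer microglia-poor (68.1%) than microglia-rich (97.4%) LPS cells.

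Of the class II genes in the rule, Cd74 was at 10102, 10048, 10407 and 11109 CPM in the microglia-poor cells of the LPS libraries and at 15109, 25312 and 17386 CPM in those of saline. H2-Ab1 was at 2442, 1622, 2077 and 2339.5 and 4415, 6219 and 4832 CPM, and H2-Aa at 1587 to 2433 and 2847 to 8891 CPM. For all 3 genes each LPS value was lower than each saline value. The median class II count per microglia-poor cell was 17 UMIs with LPS and 89 with saline.

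Gated cells were next compared with Cd209a cells of the same 4 saline libraries, leaving the genes of either gate out of the test. Of 2029 genes tested 225 differed, or 11.1% (137 higher in gated cells, 6.75%, and 88 lower, 4.34%, edgeR's quasi-likelihood test with the mouse as a block, adjusted p under 0.05). All 6 testable markers of mature dendritic cells outside the rule were higher, with a median log2 fold change of 3.15 against -0.07 over all genes tested. Ccl5, a chemokine for T cells and monocytes, was at 6972, 8054, 9541 and 11185 CPM in gated cells and at 110, 30.4, 74.0 and 573 in Cd209a cells (log2 fold change 6.04 ± 0.83 (SE), adjusted p = 0.0345). Relb, the NF-kappaB subunit of dendritic cell maturation, was at 209, 207, 301 and 531 against 3.33, 30.4, 14.8 and 40.6 CPM (log2 fold change 3.89 ± 0.42 (SE), adjusted p = 8.41e-06). Cd83 was at 1071, 796, 1434 and 1063 against 423, 253, 44.4 and 97.3 CPM (log2 fold change 2.78 ± 0.65 (SE), adjusted p = 0.0391). In all 4 libraries each of these genes was higher in the gated cells, and the 2 sets of values did not overlap. Il4i1, an amino acid oxidase that restrains T cells, differed by 3.53 (adjusted p = 1.07e-05) on the log2 scale. Cd200 differed by 2.53 (adjusted p = 0.00152), and Tmem123, which takes part in dendritic cell migration, by 2.68 (adjusted p = 8.54e-06). In edgeR the call was lost for Ccl5 without saline DMSO 1, saline DMSO 2 or saline inhibitors 1 (adjusted p of 0.0903 to 0.129) and Cd83 without saline DMSO 1 or saline inhibitors 2 (adjusted p of 0.0664 to 0.373). Cd83 was also not called (2.86, adjusted p = 0.114) with a class II limit of 5 for both gates and cells with Cd79a or Cd3e left out of the Cd209a gate.

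The largest differences outside these lists were in genes nearly absent from Cd209a cells. Ramp3, which modifies peptide hormone receptors, had 38 UMIs in gated cells and none in the Cd209a cells, and was at least 92.5-fold higher. Mmp25, a membrane-bound metalloproteinase, had 48 UMIs in gated cells and 2 in Cd209a cells, a ratio of 166 (95% counting interval 43.6 to 1413) per UMI sequenced. Zmynd15 had 44 UMIs and 1, a ratio of 305 (95% counting interval 52.0 to 12315). Serpinb6b, a protease inhibitor, Nr4a3, a nuclear receptor, and Fabp5, a fatty acid carrier, were higher by 5.41, 5.26 and 4.59 on the log2 scale. AA467197 and Fam177a2 were higher by 3.74 and 3.63, and Fam177a2 has a close paralog that may share its reads. These genes had adjusted p of 1.25e-06 to 2.72e-05 in edgeR. The same direction in every library was a condition for naming them.

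Among NF-kappaB and survival genes, 3 of 7 tested were higher and none was lower. Besides Relb these were the inhibitors Nfkbib (2.57, adjusted p = 0.00113) and Nfkbia (0.89, adjusted p = 0.0454), whereas Nfkb1 was at 218 ± 19.6 and 222 ± 16.7 CPM and was not called (0.01, adjusted p = 0.992). In T cell costimulation 2 of 5 were higher, Cd83 and the adhesion ligand Icam1 (2.41, adjusted p = 2.86e-04). Among migration and cytoskeleton genes, 4 of 8 were higher, namely Marcks, Marcksl1, Tmem123 and Samsn1. Itgb7, an integrin chain of gut-homing leukocytes, was lower at 78.3, 79.6, 53.1 and 83.9 against 200, 243, 283 and 273 CPM (log2 fold change -1.75 ± 0.39 (SE), adjusted p = 0.00591). Every gated value of Itgb7 lay below every Cd209a value. The gated pools held 14 UMIs of Itgb7 in all, and its values of 78.3, 53.1 and 83.9 CPM stood for 3 UMIs each. Of cytokines and chemokines 2 of 6 were higher, Ccl5 and Cxcl16, the membrane-bound ligand of CXCR6 (2.60, adjusted p = 5.50e-05). The call in edgeR did not last for Nfkbia without saline DMSO 2, saline inhibitors 1 or saline inhibitors 2 (adjusted p of 0.0729 to 0.255).

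Class I presentation genes were higher in gated cells where they were called, and genes of the class II pathway outside the rule were mixed. Of 10 class I genes tested, 6 were higher and none was lower. B2m, the light chain of class I molecules, was at 7651, 5778, 10692 and 6655 CPM in gated cells and at 2799, 2737, 3227 and 3458 in Cd209a cells (log2 fold change 1.32 ± 0.14 (SE), adjusted p = 8.41e-06). Psme2 and Psme1, the subunits of the proteasome activator PA28, were higher by 2.61 (adjusted p = 8.41e-06) and 1.72 (adjusted p = 7.01e-04). H2-K1 and H2-D1, whose similar sequences may share reads, were higher by 0.70 (adjusted p = 0.0203) and 0.62 (adjusted p = 0.0228), and the immunoproteasome subunit Psmb8 by 0.89 (adjusted p = 0.0331). In the class II list 3 of 10 genes were lower: the transactivator Ciita (-1.48, adjusted p = 0.028) and the peptide loading chains H2-DMa (-1.14, adjusted p = 0.0079) and H2-DMb1 (-1.21, adjusted p = 0.00879). The Cd209a gate asks for 20 class II UMIs and the Ccr7 gate for 5, a difference that bears on this list. With 5 for both gates, and cells with Cd79a or Cd3e also left out of the Cd209a gate, Ciita (-1.50, adjusted p = 0.0232), H2-DMa (-1.15, adjusted p = 0.00525) and H2-DMb1 (-1.22, adjusted p = 0.00817) were still called lower in edgeR, and Ctss lost its call (0.94, adjusted p = 0.133). Ctss and Lgmn, lysosomal proteases, were higher by 1.02 and 0.79, but their free RNA levels of 4587 and 3399.5 CPM were above those in gated cells (3009.9 and 1354 CPM). With microglia-rich cells left out Ctss differed by -0.18, and with free RNA subtracted Lgmn differed by -0.085. By edgeR the call did not hold for H2-K1 without saline inhibitors 1 (adjusted p = 0.183), H2-D1 without saline DMSO 1 or saline inhibitors 1 (adjusted p of 0.065 to 0.156) and Psmb8 without saline inhibitors 1 or saline inhibitors 2 (adjusted p of 0.156 to 0.209). The call was also lost for Ciita without saline DMSO 2, saline inhibitors 1 or saline inhibitors 2 (adjusted p of 0.0686 to 0.161), H2-DMa without saline DMSO 2 (adjusted p = 0.14) and H2-DMb1 without saline DMSO 2 (adjusted p = 0.14). The same was true of Ctss without saline DMSO 2 or saline inhibitors 2 (adjusted p of 0.134 to 0.198) and Lgmn without saline DMSO 2 (adjusted p = 0.0835).

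**Figure D3:**
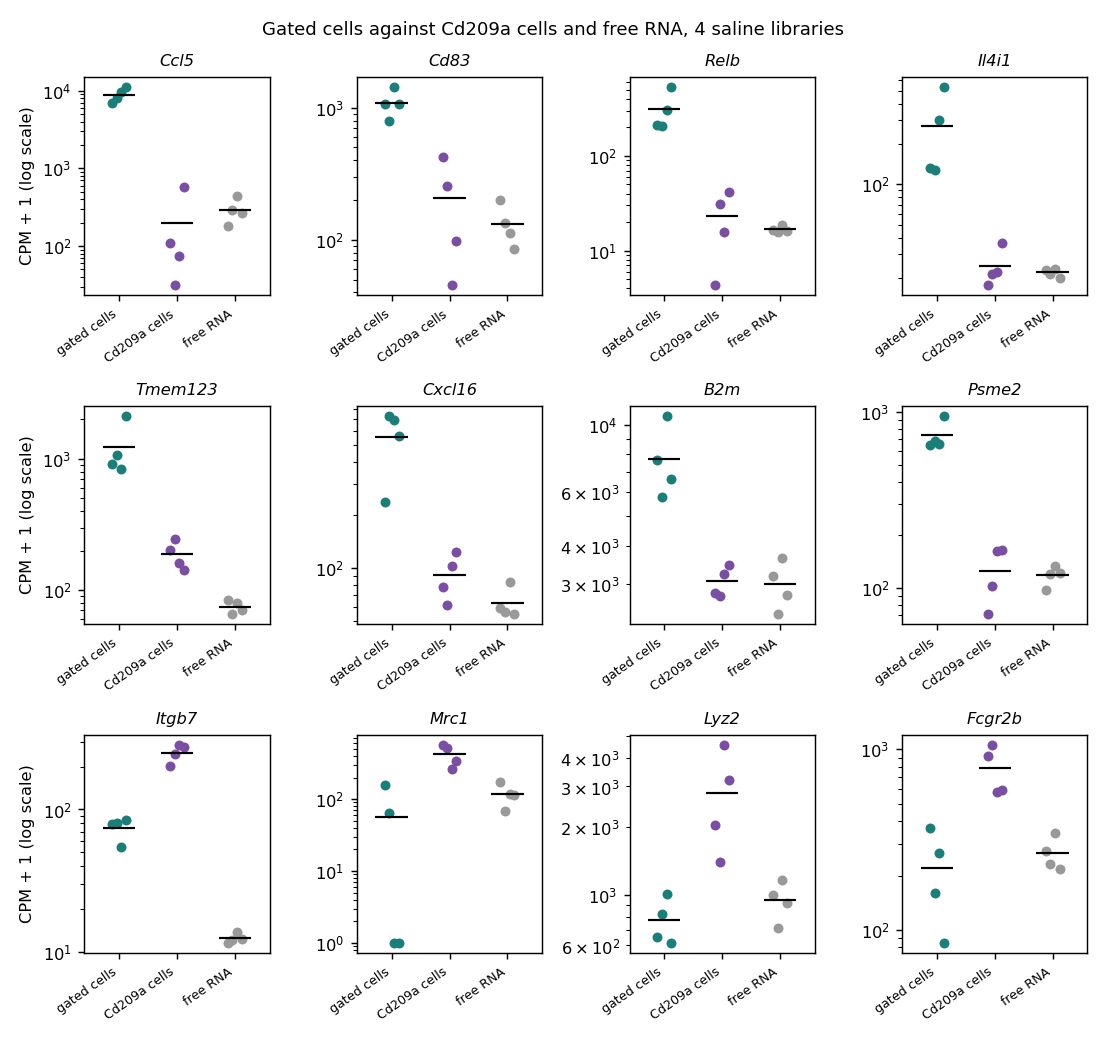
Levels of 12 genes outside both gates (y axis, CPM + 1 on a log scale) in gated cells (green), Cd209a cells (purple) and free RNA (grey) of the 4 saline libraries, with 1 point per library and a line at the mean. Ccl5 lies at 6972 to 11185 CPM in gated cells and at 30.4 to 573 in Cd209a cells, and Itgb7 at 53.1 to 83.9 (14 UMIs in all) and at 200 to 283.

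Because B2m, H2-K1 and Nfkbia were higher together and all held a match to an NF-kappaB type motif, the 250 bases upstream of their RefSeq start sites are shown in the GRCm38.p6 build. Letters in capitals are the match to a motif of GGG, any 2 bases, TT, any base and CC, searched on both strands (its reverse complement is GG, any base, AA, any 2 bases, CCC), with the match ending 102, 117 and 20 bases before the start site of H2-K1, B2m and Nfkbia.
H2-K1, chr17:34000348-34000597, minus strand: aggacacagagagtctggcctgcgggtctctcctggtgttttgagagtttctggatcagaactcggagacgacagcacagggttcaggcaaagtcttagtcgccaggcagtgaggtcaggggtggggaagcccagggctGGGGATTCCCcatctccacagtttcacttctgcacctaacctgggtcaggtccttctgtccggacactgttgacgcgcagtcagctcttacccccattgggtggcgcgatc
B2m, chr2:122147437-122147686, plus strand: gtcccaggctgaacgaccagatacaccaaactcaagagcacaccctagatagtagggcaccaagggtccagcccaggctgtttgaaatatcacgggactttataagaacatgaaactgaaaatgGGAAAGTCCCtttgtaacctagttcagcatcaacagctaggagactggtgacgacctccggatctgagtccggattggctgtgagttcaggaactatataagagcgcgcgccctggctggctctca
Nfkbia, chr12:55492648-55492897, minus strand: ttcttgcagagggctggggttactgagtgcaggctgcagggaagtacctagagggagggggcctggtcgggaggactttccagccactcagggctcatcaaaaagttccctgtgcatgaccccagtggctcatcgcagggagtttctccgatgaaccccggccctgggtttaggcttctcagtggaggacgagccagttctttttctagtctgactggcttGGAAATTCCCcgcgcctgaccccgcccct
The motif was found in 11 of the 109 higher genes that have such a window (10.1%), in 2 of 70 lower genes (2.86%) and in 89 of 1621 genes tested (5.49%). Among all 27025 genes with a window it was found in 4.71%, and among all 32851 windows of this length in 4.11%. The other higher genes with a match were Txn1, Rps19, Il21r, Txndc17, Mif4gd, Tuba1c, H2-D1 and H2-Q7. A match describes letters only. Windows were at hand for 109 of the 137 genes higher than in Cd209a cells. For LPS against saline in microglia-poor cells, given below, the motif was in 9 of 95 higher genes (9.47%) and 4 of 61 lower genes (6.56%). It was in 95 of the 1367 genes tested there (6.95%). The 4 lower genes were B2m, Txn1, Il21r and Txndc17, which are higher in gated than in Cd209a cells.

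Lower in gated cells than in Cd209a cells were 1 of 2 tested markers of macrophages (Mrc1), 1 of 3 of monocytes (Ccr2) and 2 of 10 tested genes of uptake and sensing (Lyz2 and Fcgr2b), and none of these lists had a gene called higher. Mrc1, the mannose receptor, was at 157, 63.7, 0 and 0 CPM in gated cells and 569.9, 522, 258 and 341 in Cd209a cells (log2 fold change -3.08 ± 0.49 (SE), adjusted p = 3.98e-04). Lyz2, lysozyme, was at 653, 828, 1009 and 615 against 2026, 1399, 4572 and 3212 CPM (log2 fold change -1.70 ± 0.22 (SE), adjusted p = 5.98e-05). Fcgr2b, the inhibitory Fc receptor, was at 366, 159, 266 and 83.9 against 916, 1059, 581 and 597 CPM (log2 fold change -1.84 ± 0.32 (SE), adjusted p = 9.27e-04). None of the 3 genes overlapped between the classes. Ccr2, the receptor that draws monocytes into tissue, had a log2 fold change of -2.35, with no UMI in the lowest gated pool. Among the largest falls, Rnf150 had 1 UMI in gated cells and 129 in Cd209a cells, the matrix gene Fn1 3 and 282, and Hepacam2 3 and 185. Per UMI sequenced these genes were at 18.6 (95% counting interval 3.28 to 741), 13.6 (95% counting interval 4.59 to 66.2) and 8.90 (95% counting interval 3.0 to 43.5) times the level of gated cells in Cd209a cells. The other log2 fold changes were those of Gm30211 (-3.74), the immunoglobulin gene Igkc (-3.17) and the transcription factor Klf4 (-2.84), followed by Lbr, Lmo1 and Krt80 at -2.39, -2.38 and -2.37. For these 6 genes the gated pools held 4 to 12 UMIs in all. The Cd209a gate of this comparison did not bar Cd79a or Cd3e, and 10, 13, 5 and 26 of its cells in the 4 saline libraries held a UMI of either, so the gates can fix part of the difference in Igkc. With those cells left out and a class II limit of 5, Igkc differed by -1.61 and was not called (adjusted p = 0.0856 in edgeR). The edgeR call ended for Hepacam2 without saline DMSO 2 (adjusted p = 0.134), Lbr without saline DMSO 2 or saline inhibitors 1 (adjusted p of 0.0501 to 0.156) and Lmo1 without saline DMSO 2, saline inhibitors 1 or saline inhibitors 2 (adjusted p of 0.0675 to 0.167). The call was also lost for Krt80 without saline DMSO 2 or saline inhibitors 1 (adjusted p of 0.087 to 0.211).

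Among 6 tested genes of dendritic cell identity 2 were higher in gated cells and none was lower. Flt3 was at 110 ± 66.1 and 119 ± 35 CPM, Itgax at 146 ± 46.8 and 145 ± 34.8, and Dpp4 at 135 ± 53.4 and 108 ± 20.5 (SD, n = 4, adjusted p of 0.756 to 0.999 in edgeR). Irf8 and Id2, transcription factors of dendritic cell development, were higher by 1.75 (adjusted p = 0.00162) and 1.41 (adjusted p = 0.00434), and Irf8 is also a microglial gene. Microglial markers moved with the comparison, in which 8 of 9 tested were higher in gated cells. Csf1r (0.85) and Siglech (1.37) were called higher too, at 1264 and 394 CPM in gated cells and 3284 and 1295 CPM in free RNA, and with microglia-rich cells left out Csf1r differed by -0.82. In edgeR the call was lost for Csf1r without saline DMSO 2, saline inhibitors 1 or saline inhibitors 2 (adjusted p of 0.0596 to 0.0991) and Siglech without saline DMSO 1 or saline DMSO 2 (adjusted p of 0.0937 to 0.15). The share of UMIs expected from free RNA was 23.3% to 50.3% in the gated saline pools and 11.7% to 21.0% in the Cd209a pools. With microglia-rich cells left out, 245 of 1302 genes were called, and 135 of the 192 calls that could be tested again were made again in the same direction.

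LPS was compared with saline first in the microglia-poor cells, in 3 saline and 4 LPS libraries. Of 1700 genes tested 194 changed, or 11.4% (116 higher with LPS, 6.82%, and 78 lower, 4.59%, edgeR, adjusted p under 0.05). The saline pools were small, with 6 to 8 cells and 16083 to 29907 UMIs, so that a gene at 0 there has only an upper limit, and folds against 0 are given as lower bounds with a floor of 3 UMIs over the group.

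Il1rn, the antagonist of the interleukin 1 receptor, had no UMI in the saline pools and was at 759, 815, 966 and 835 CPM in the LPS pools, at least 19.5-fold higher, with free RNA of the same libraries at 84.5 CPM. The 2 microglia-poor cells of saline inhibitors 1, too few to be pooled, held 1 UMI of it, and with that pool included the log2 fold change was 5.85 (adjusted p = 4.78e-05 in edgeR). In all gated cells of that library Il1rn was at 319 CPM. Fabp4, a fatty acid carrier, was at 0 with saline and at 1477, 525, 704 and 691 CPM with LPS, at least 19.6-fold higher, with 9.01 CPM in free RNA. Vdr, the vitamin D receptor, was at 0 and at 323, 225, 179 and 252 CPM, at least 5.65-fold higher, with 2.74 CPM in free RNA. For these 3 genes the level in the cells was far above that in free RNA, and their adjusted p were 8.95e-06, 1.13e-04 and 0.00186 in edgeR. Cxcl3, a neutrophil chemokine, was at least 13.1-fold higher (567 ± 419 CPM with LPS, 9.55 in free RNA). Olfr1033 and Zfp52 were at least 12.5-fold and 8.52-fold higher. Saa3 and Lcn2, acute phase genes, were also among the largest. Saa3 had 8304 UMIs with LPS and 2 with saline, a ratio of 441 (95% counting interval 122 to 3639), and Lcn2 was at least 45.6-fold higher. Their levels in the LPS pools were 13885 and 1979.6 CPM, but free RNA of the LPS libraries held 40106 and 5128 CPM of them. Lgals3bp was likewise lower in the cells (279.9 CPM) than in free RNA (691 CPM), and Ch25h, cholesterol 25-hydroxylase, was at 378 and 336 CPM. Of the 116 genes higher with LPS, 82 were above free RNA in every LPS library and 24 were at or below it in every one. With free RNA subtracted 183 of 1611 genes were called in either direction. Of the 194 calls 192 could be tested again, and 174 were made again in the same direction. The call in edgeR did not last for Cxcl3 without saline DMSO 1 or saline inhibitors 2 (adjusted p of 0.06 to 0.117), Saa3 without saline DMSO 1, saline DMSO 2 or saline inhibitors 2 (adjusted p of 0.0636 to 0.109) and Ch25h without LPS inhibitors 2, saline DMSO 1, saline DMSO 2 or saline inhibitors 2 (adjusted p of 0.0705 to 0.102).

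Cd200 and Cd274 rose, and markers of maturation split in direction. Cd200, an inhibitory ligand, was at 435, 167 and 302 CPM with saline and at 2709.5, 1846, 1408 and 1901 with LPS (log2 fold change 2.82 ± 0.36 (SE), adjusted p = 3.97e-05). Cd274, which encodes PD-L1, was at 0, 33.4 and 86.3 and 638, 197, 352 and 423 CPM, with 3 UMIs in all with saline and a ratio of 10.2 (95% counting interval 3.44 to 49.5) (adjusted p = 0.00593 in edgeR). Both were among 8 tested immunoregulatory genes, of which these 2 were higher and none was lower, and neither overlapped between groups. Il4i1 (0.15, adjusted p = 0.843) and Socs2 (-0.58, adjusted p = 0.541) of the same list were not called. Among costimulation genes Cd80 was higher, at 327 ± 75.2 against 104 ± 19.3 CPM (log2 fold change 1.72 ± 0.50 (SE), adjusted p = 0.0305), and Cd83 was lower, at 591, 356, 442 and 364 CPM with LPS and 995, 1471 and 1467 with saline (log2 fold change -1.56 ± 0.30 (SE), adjusted p = 0.00157). Cd86 (1.27, adjusted p = 0.132) and Cd40 (0.17, adjusted p = 0.854) were not called. Of the 12 markers of mature dendritic cells outside the rule, 11 could be tested. Cd200, Cd274 and Ccl5 were higher, and Relb, Cd83, Tmem123 and Nudt17 were lower. Their median log2 fold change was -0.51 against 0.17 over all genes. A level here comes from UMIs summed over the cells that pass the same rule, so deeper cells weigh more. It does not give the number of cells, and the part of the mix of cells in it was not tested. By edgeR the call did not hold for Cd80 without LPS inhibitors 2, saline DMSO 2 or saline inhibitors 2 (adjusted p of 0.0603 to 0.0819), Relb without LPS inhibitors 2, saline DMSO 2 or saline inhibitors 2 (adjusted p of 0.0544 to 0.198) and Tmem123 without saline DMSO 2 or saline inhibitors 2 (adjusted p of 0.138 to 0.16).

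Ccl5 was the most abundant chemokine outside the rule, at 15482, 16919 and 17170 CPM with saline and 25529, 28269, 24879 and 27298 with LPS (log2 fold change 0.71 ± 0.17 (SE), adjusted p = 0.00968), while free RNA of the LPS libraries held 4350.3 CPM. The LPS values were all above the saline values. It was the only one of 8 tested cytokines and chemokines that was called. Ccl3 was at 558 to 4555 CPM with LPS and 43.1 to 1181 with saline (1.93, adjusted p = 0.384), and Il1b at 455 to 1894 and 0 to 373 (2.26, adjusted p = 0.17). The interferon-stimulated gene Isg15 was higher (1162 ± 506 against 113 ± 98.1 CPM, adjusted p = 0.00528 in edgeR) and was 1 of 5 tested in its list. Among 9 tested genes of uptake and sensing 3 rose, the Fc receptor genes Fcgr2b at 2.71, the common chain Fcer1g at 1.98 and Fcgr3 at 1.85 on the log2 scale. Fcgr4, which is not on that list and was chosen after its values were seen, was not called (3.49, adjusted p = 0.0766). Of the 3 called genes Fcgr2b alone was higher in the cells (863 CPM) than in free RNA (391 CPM). Fcer1g was at 2372 and 3431 CPM, and Fcgr3 at 314 and 1095 CPM. The edgeR call ended for Fcgr2b without saline DMSO 2 (adjusted p = 0.0929) and Fcgr3 without LPS inhibitors 1, LPS inhibitors 2, saline DMSO 2 or saline inhibitors 2 (adjusted p of 0.0601 to 0.104).

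Antigen presentation genes outside the rule were lower with LPS where they were called, apart from Ctss. H2-Eb1, a class II chain, was at 9078, 8526 and 4271 CPM with saline and 2874, 2146, 2457 and 2350.2 with LPS (log2 fold change -1.54 ± 0.24 (SE), adjusted p = 1.82e-04). H2-DMb2 was at 319 ± 89.4 and 90.8 ± 64.6 CPM (-1.88, adjusted p = 0.0262), whereas H2-DMa (-1.13, adjusted p = 0.123) and H2-DMb1 (-1.0, adjusted p = 0.226) were not called. In all 2 of 7 tested class II pathway genes fell, and Ctss rose by 1.00 at a level (1969.8 CPM) under that of free RNA (4793 CPM). The class II limit of the rule was the same in both treatments, but it did not remove cells evenly. Among cells with under 3 microglial UMIs that met the rest of the rule, it left out 164 with LPS and 2 with saline. The part of this limit in the class II levels was not tested. Of 10 class I genes B2m (-0.68, adjusted p = 0.0375) and Psme1 (-1.29, adjusted p = 0.0123) fell and none rose, although B2m differed by 0.079 without a filter on low counts. H2-K1 was at 2212 to 3575 CPM with LPS and 3295 to 4185 with saline (-0.38, adjusted p = 0.277). In edgeR the call was lost for B2m without any 1 library (adjusted p of 0.0639 to 0.224), Psme1 without saline inhibitors 2 (adjusted p = 0.119) and H2-DMb2 without LPS DMSO 1, LPS inhibitors 1, LPS inhibitors 2, saline DMSO 1, saline DMSO 2 or saline inhibitors 2 (adjusted p of 0.0557 to 0.203). The call was also lost for Ctss without LPS inhibitors 1 or LPS inhibitors 2 (adjusted p of 0.0572 to 0.0573).

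Relb was the only NF-kappaB gene of 10 that was called, at 373, 401 and 733 CPM with saline and 202, 131, 235 and 149.9 with LPS (log2 fold change -1.46 ± 0.38 (SE), adjusted p = 0.0169). Nfkb1 (1.02, adjusted p = 0.128), Traf1 (-0.20, adjusted p = 0.779), Tnfaip3 (0.75, adjusted p = 0.357) and Birc3 (-0.06, adjusted p = 0.951) were not called. Irf8 was at 746, 334 and 173 CPM with saline and 37.5, 18.7, 20.7 and 37.5 with LPS (log2 fold change -3.61 ± 0.56 (SE), adjusted p = 1.87e-04), which was under the 169.7 CPM of free RNA. In both genes the groups were separate. Flt3 (0.41, adjusted p = 0.769) and Id2 (0.02, adjusted p = 0.971) were not called. Zmynd15, which was among the genes highest in gated cells relative to Cd209a cells, was at 995, 368 and 129 CPM with saline and 14.1, 9.37, 20.7 and 10.7 with LPS (log2 fold change -4.90 ± 0.65 (SE), adjusted p = 4.79e-05). The other large falls were in Asap1, Ms4a4b, Plaat3, Lgals1, Ttr, Trem2, Dach2 and Sh3bp1, with log2 fold changes of -2.69 to -3.34. Ttr is a gene of the choroid plexus and Trem2 one of microglia, and free RNA held 88627 and 1884 CPM of them in the 3 saline libraries and 17017 and 327 CPM in the LPS libraries. Tubb5 (-1.42), Hspa8 (-1.30), Tmem123 (-0.95) and Nudt17 (-2.65) fell as well. Marcks (0.02, adjusted p = 0.977) and Marcksl1 (0.24, adjusted p = 0.799) were not called. The call in edgeR did not last for Ms4a4b without saline DMSO 1 or saline inhibitors 2 (adjusted p of 0.0544 to 0.0829), Lgals1 without saline inhibitors 2 (adjusted p = 0.0725) and Ttr without saline DMSO 2 or saline inhibitors 2 (adjusted p of 0.0658 to 0.0725). The call was also lost for Trem2 without saline DMSO 1, saline DMSO 2 or saline inhibitors 2 (adjusted p of 0.0874 to 0.168), Dach2 without saline DMSO 1 or saline inhibitors 2 (adjusted p of 0.0628 to 0.072) and Sh3bp1 without saline inhibitors 2 (adjusted p = 0.126). The same was true of Tubb5 without saline DMSO 2 (adjusted p = 0.0671) and Hspa8 without saline DMSO 2 (adjusted p = 0.05).

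**Figure D4:**
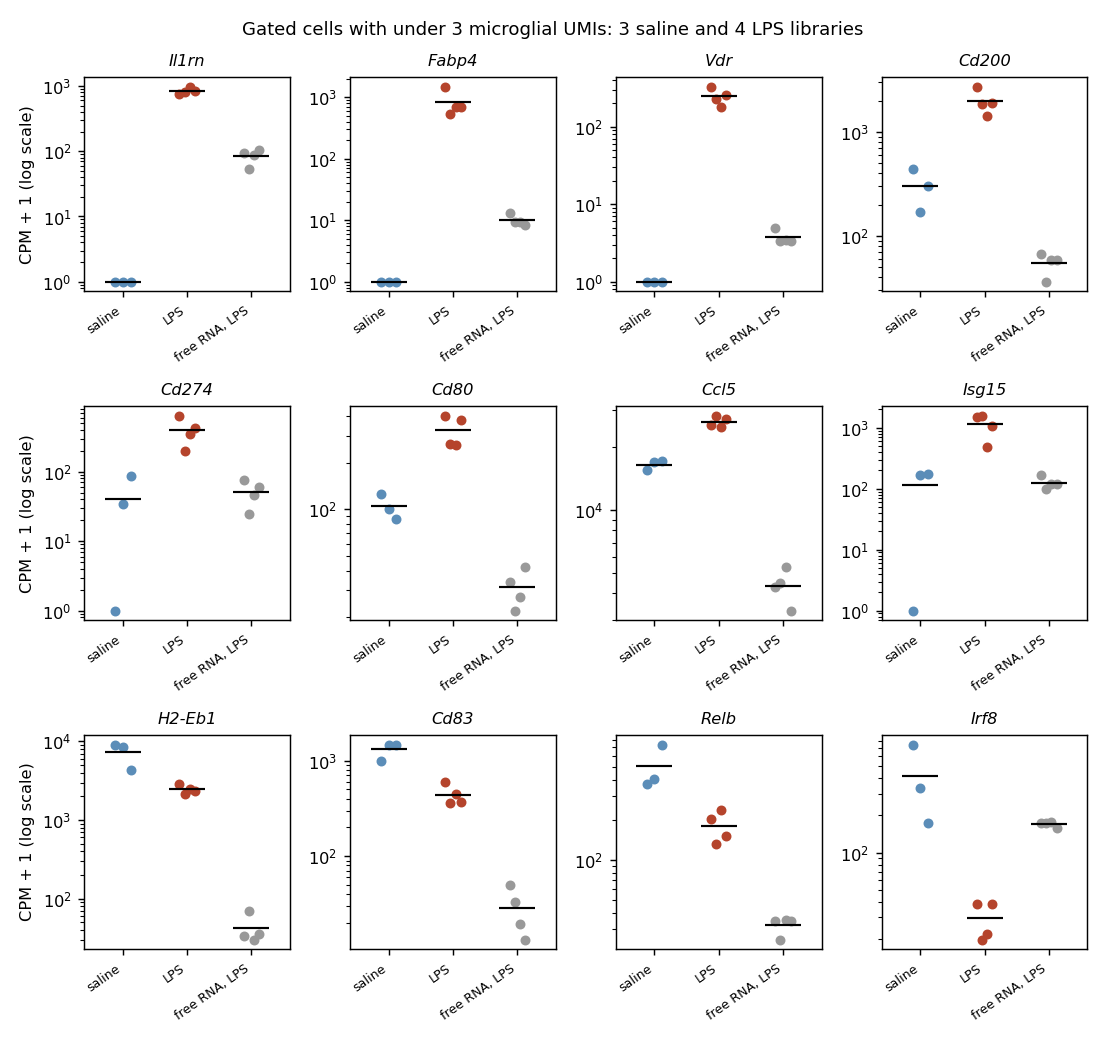
Levels of 12 genes (y axis, CPM + 1 on a log scale) in microglia-poor gated cells of 3 saline libraries (blue) and 4 LPS libraries (red), with free RNA of the LPS libraries in grey, 1 point per library and a line at the mean. Il1rn, Fabp4 and Vdr are at 0 CPM in the saline pools and at 759 to 966, 525 to 1477 and 179 to 323 CPM in the LPS pools, and the LPS points of H2-Eb1, Cd83, Relb and Irf8 lie below the saline points.

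In all gated cells, 953 of 4758 genes tested changed with LPS, or 20% (517 higher, 10.9%, and 436 lower, 9.16%, edgeR, adjusted p under 0.05). By number of cells these pools were 20% to 80.0% microglia-rich with saline and 42.9% to 65.9% with LPS. Of the 686013, 665501, 719021 and 1131054 UMIs in the LPS pools, microglia-rich cells held 472690, 558810, 574119 and 944264. Of the 38294, 62826, 56491 and 35761 UMIs in the saline pools they held 22211, 32919, 50469 and 12581. The level of 145 of the 517 higher genes was above that of free RNA in every LPS library. Free RNA of the LPS libraries also held the genes with the largest rises. Saa3 was at 40790.4 CPM in gated cells and 40106 in free RNA. Marco, a scavenger receptor, was higher in the cells (4330.1 and 2681 CPM), as was Fpr1, a receptor for formylated peptides (410.3 and 309 CPM), and Lcn2 was lower in them (2799 and 5128 CPM). Marco and Lcn2 each had 1 UMI in the saline pools, and the ratios were 814 (95% counting interval 146 to 32163) and 550.1 (95% counting interval 98.7 to 21731). Fpr2, Wfdc21, Apoc2, Clec4e, Tarm1 and Clec4d completed the 10 largest, at 61.9 to 178 CPM in gated cells and 36.1 to 141 in free RNA. Itgax, a dendritic cell integrin, was at 146 CPM with saline and fell to 6.05 (-4.30 on the log2 scale, adjusted p = 3.67e-07), with Itgb7, Amz1, Gpr34, Klrd1, Slc2a5, H2-DMb2, Sema5a, Dach2 and Nabp1 among the largest falls. By list, 8 of 10 class II pathway genes, 5 of 7 dendritic cell identity genes and 6 of 11 migration genes were lower, and 6 of 7 acute phase and 6 of 10 uptake genes were higher. In microglia-poor cells the lower ones were 2 of 7, 1 of 4 and 1 of 9, with a median log2 fold change of 0.22 for identity and 0.018 for migration genes against -1.99 and -0.79 in all gated cells, and the higher ones 2 of 3 and 3 of 9. Of the 953 calls, 494 could be tested in the microglia-poor cells, where 39 had the opposite sign. Called in both were 124 genes, all with the same sign, which is 13.0% of the 953 and 63.9% of the 194. The microglia-poor cells are part of all gated cells, so part of this agreement was fixed in advance. Cd200 (higher), Ccl5 (higher), Cd83, Relb, H2-Eb1 and Irf8 (lower) were called in both. By edgeR the call did not hold for Ccl5 without LPS DMSO 1 or LPS DMSO 2 (adjusted p of 0.0599 to 0.11), Zbtb46 without saline DMSO 1, saline DMSO 2, saline inhibitors 1 or saline inhibitors 2 (adjusted p of 0.0576 to 0.0649) and Flt3 without saline DMSO 1, saline inhibitors 1 or saline inhibitors 2 (adjusted p of 0.0855 to 0.189). The call was also lost for Cacnb3 without saline DMSO 2, saline inhibitors 1 or saline inhibitors 2 (adjusted p of 0.102 to 0.227), Marcks without saline DMSO 1, saline DMSO 2, saline inhibitors 1 or saline inhibitors 2 (adjusted p of 0.0614 to 0.591) and Swap70 without saline DMSO 2 (adjusted p = 0.256). The same was true of Myo1g without saline DMSO 1, saline inhibitors 1 or saline inhibitors 2 (adjusted p of 0.055 to 0.0985), Ifi30 without saline DMSO 1, saline DMSO 2, saline inhibitors 1 or saline inhibitors 2 (adjusted p of 0.0837 to 0.744) and S100a8 without saline DMSO 1 or saline inhibitors 2 (adjusted p of 0.0607 to 0.1).

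Immediate-early genes, which cells switch on within minutes of a stimulus, were lower in gated cells of the inhibitor libraries. With in vivo treatment as a covariate, 11 of 4758 genes tested were higher with DMSO and none was lower, or 0.231% (edgeR, adjusted p under 0.05), with 125 genes at an unadjusted p under 0.05. All 7 tested immediate-early genes were among the 11. Zfp36, an RNA-binding repressor of cytokine messages, was at 4727, 2260.2, 1769.7 and 1089 CPM in the DMSO libraries and at 159, 224, 145 and 111 in the inhibitor libraries (log2 fold change 3.77 ± 0.28 (SE), adjusted p = 2.20e-11). Fos was at 3108, 557, 828 and 942 against 35.4, 0, 34.8 and 30.1 CPM (log2 fold change 5.07 ± 0.62 (SE), adjusted p = 0.0107). Dusp1, a phosphatase, was at 1749.6, 573, 2111 and 1372 against 106, 224, 419 and 335 CPM (log2 fold change 2.44 ± 0.31 (SE), adjusted p = 1.49e-05). DMSO and inhibitor libraries were separate for each of these genes. Egr1 (5.28), Jun (3.51), Junb (2.92), H1f2 (2.73), Ier2 (2.69) and Btg2 (1.76) were separate as well on the log2 scale, while the called genes Enpp6 and Jund overlapped. Free RNA moved the same way, with Fos at 1259.6 CPM in DMSO and 45.5 in inhibitor libraries and Zfp36 at 1419 and 128 CPM. After free RNA was subtracted none of 1543 genes tested was called in edgeR, with 24 at an unadjusted p under 0.05, and only 4 of the 11 genes could be tested. The subtraction took microglial transcripts to come from free RNA alone, although these pools included microglia-rich cells. That put the share of free RNA at 23.3% to 50.3% of UMIs with saline and 59.5% to 78.2% with LPS. With microglia-rich cells left out 8 of 1700 genes were called, among them 5 of the 9 called genes that could be tested again, in the same direction. The maturation markers outside the rule were not called, for example Cd83 (0.22, adjusted p = 1). The edgeR call ended for Egr1 without LPS inhibitors 2 (adjusted p = 0.0665), Ier2 without LPS DMSO 1 or LPS inhibitors 2 (adjusted p of 0.12 to 0.171) and Btg2 without LPS inhibitors 2 (adjusted p = 0.14).

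**Figure D5:**
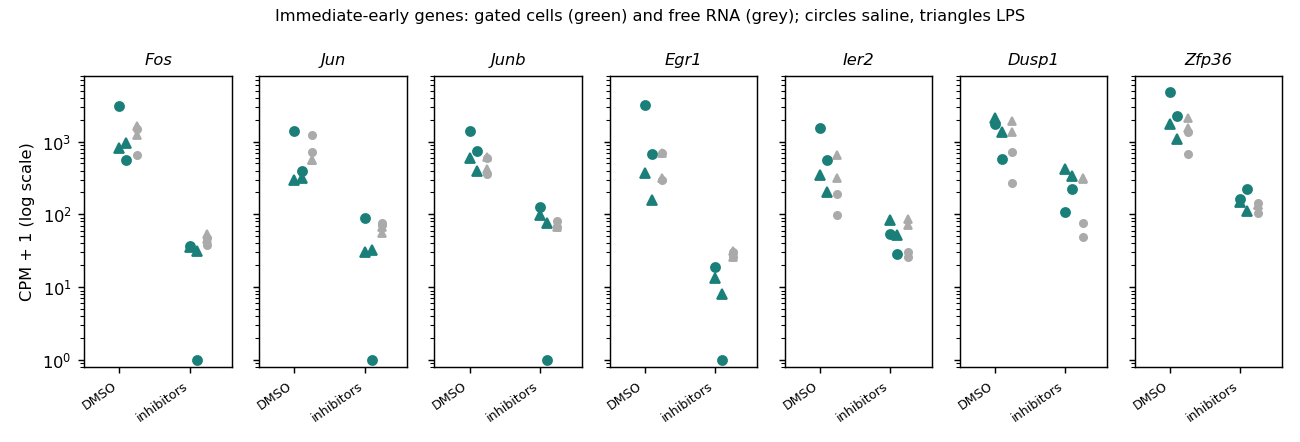
Levels of 7 immediate-early genes (y axis, CPM + 1 on a log scale) in all gated cells (green) and in free RNA (grey), with 1 point per library, DMSO on the left and inhibitors on the right of each panel, circles for saline and triangles for LPS. Fos lies at 557 to 3108 CPM with DMSO and 0 to 35.4 with inhibitors in gated cells, and the grey points move in the same direction.

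The libraries held 90352359 to 141182123 UMIs and 12039 to 17364 cells within the limits, and barcodes of 1 to 99 UMIs held 15.5% to 33.7% of the UMIs. Pools of all gated cells held 35761 to 62826 UMIs with saline and 665501 to 1131054 with LPS. At most 25 cell barcodes were shared by any pair of libraries (0.187% of the smaller library).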

How the data were processed

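CD45+ cells of 8 mouse brains were measured by PIPseq, with 1 library per mouse. The files held counts: for every barcode the number of UMIs per gene, which the authors made with PIPseeker (barcode matching, trimming, STAR alignment to a mouse genome and UMI counting) and deposited as whole numbers for all barcodes, not normalized. The labels also name Seurat 4, which the authors used downstream. Cells were kept with 800 to 44999 UMIs, 250 to 6499 genes and under 5% mitochondrial UMIs. Members and gene lists were chosen with earlier results of these data known. Groups came from the labels, and no column was left out.

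UMIs were summed per library over the cells of a class, for libraries with at least 5 such cells, and tested in R 4.3.3 with edgeR 4.0.16 (filterByExpr, TMM, quasi-likelihood F-test, Benjamini-Hochberg adjustment over all genes tested, called at adjusted p under 0.05). LPS against saline had no covariate, DMSO against inhibitors had in vivo treatment as a covariate, and gated against Cd209a cells had the mouse as a block. Genes used by a gate were left out of the tests. The comparison within microglia-poor cells was planned as an alternative, and it was given its own place, with alternatives of its own, after the data were seen. Differences in shares were tested by exact permutation over libraries, two-sided. Levels are CPM of the summed UMIs, counting intervals are exact 95% intervals that cover counting error only, and 3 UMIs, the floor for a count of 0, were worth 2.65 to 83.9 CPM in a library's pool of all gated cells. Free RNA was read from barcodes of 1 to 99 UMIs, and its share in a pool was scaled by microglial genes. Scrublet in scanpy 1.11.5 marked under 0.5% of cells by its own threshold in every library, so doublets were treated by leaving out the 8% of highest scores as an alternative. The test scripts were run on simulated counts first.

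Genes are named by a rule: the genes of the gates, the 10 largest called changes in each direction whose libraries did not overlap (or, between classes, had 1 direction in every library), called genes of 17 pathway lists, and up to 4 members of each list by level. Some genes that the rule names are not reported here. Other genes named belong to the checks of cell type markers and to the promoter motif. Libraries of the same number share a capture batch by the labels. The check of that pairing gave correlations of 0.0375 to 0.145 between deviations of same-numbered libraries over 2920 genes. The pairing comes from the labels' batch, so blocked fits were made as alternatives, together with other normalization, filters, tests, doublet and depth settings, free RNA subtraction and leaving out each library. RefSeq promoter windows of GRCm38.p6 were matched by symbol. The clusters and annotation of the authors were not used here.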

Additional observations from a re-analysis of the deposited data

Results flagged for a closer look

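In 7 of 58 groups of 4 libraries tested, 1 library stood apart from the other 3 by more than Dixon's 95% limit for its gap over the group's range, where chance flags about 1 in 20 groups. All 7 concern gated cells.

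Library LPS DMSO 1 stood apart in 4 genes over all gated cells. Ccr7 was at 1354 CPM there against 450.0 to 531.9 CPM in the other LPS libraries. Cd83 was at 227 CPM against 73.6 to 97.4, Cd200 at 911 CPM against 284 to 343, and Fabp4 at 465 CPM against 85.6 to 142. This library also had the lowest share of microglia-rich cells among the LPS libraries, at 42.9%. In the microglia-poor cells these genes did not pass the limit. The part of the mixture in these values was not tested.

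Among the saline libraries, saline inhibitors 1 held Il1rn at 319 CPM in all gated cells, against 0 in the other 3. Among the LPS libraries, LPS inhibitors 1 held the only Cd209a cell, so that gated cells were 99.1% of both gates there and 100% in the others, and 97.8% and 100% with microglia-rich cells left out. In these 2 cases the flag rests on the other 3 libraries being tied at 0 or at 100%.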

How the results depend on the processing

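The higher frequency of gated cells with LPS kept its direction in every alternative run (limits of 3 and 6 UMIs of the selecting genes, Ccr7 required, thinning, high doublet scores, microglia-rich cells or low complexity left out, a mitochondrial limit of 10%, each library left out). It gave p = 0.0286 in each by exact permutation, apart from the permutations within batch (the replicate block) and within ex vivo treatment, where the smallest possible p is 0.0556. The difference of 69.2 per 10000 became 15.9 after thinning, 27.9 where Ccr7 was required, 28.2 with microglia-rich cells left out, 45.2 with 6 UMIs and 92.7 with 3. Leaving out 1 library gave 64.8 to 71.5 per 10000, and of 87.8 to 89.9 percentage points for the share of both gates. The difference between DMSO and inhibitors was never called, and its sign varied (-15.5 to 12.4 without 1 library, p = 0.889 by exact permutation within batch).

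Gene counts moved more. For LPS in all gated cells (953) the count was 363 with a log2 limit of 2, 1849 without a filter, 128 of 1543 genes with free RNA subtracted, 194 with microglia-rich cells left out, 458 with 6 UMIs of the selecting genes and 151 of 1067 where Ccr7 was required, an alternative added after seeing the data. It was 298 to 1202 without 1 library. Leaving out LPS DMSO 1, LPS DMSO 2, LPS inhibitors 1 or LPS inhibitors 2 gave 403, 323, 313 and 298 calls, with 1014, 1009, 990 and 999 genes left to test. For LPS in microglia-poor cells (194), whose own alternatives were added after seeing the data, it was 109 to 176 without 1 library (114 and 109 without LPS inhibitors 1 or 2), 336 without a filter, 115 of 941 genes with at least 1 cell per library, and 159 with the replicate block. For DMSO against inhibitors (11) it was 45 without a filter, 17 with the replicate block, 2 without the in vivo covariate, 0 with free RNA subtracted and 6 to 31 without 1 library. The 6 came without LPS inhibitors 2, and 29, 31, 31 and 21 came without saline DMSO 1, saline DMSO 2, saline inhibitors 1 and saline inhibitors 2. For gated against Cd209a cells (225) it was 69 with a log2 limit of 2, 362 without a filter, 104 with free RNA subtracted, 126 of 747 genes after thinning, 169 with no replicate block and 117 to 286 without 1 library, with 117 without saline DMSO 2. DESeq2 called 1159, 186 and 172 genes in the 3 comparisons other than DMSO against inhibitors, and RLE scaling 984, 197 and 234. The replicate block gave 984 for LPS in all gated cells.

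Some of the genes reported changed sign. For LPS in all gated cells these were Irf7 (-0.49 to 2.07 without 1 library, the latter without saline inhibitors 1), Flt3 (0.41), Ifi30 (0.40) and Marcks (0.018) with microglia-rich cells left out, and Csf1r (-1.25), Ifi30 (0.14) and Nfkb1 (1.39) where Ccr7 was required. Where Ccr7 was required, Csf1r (adjusted p = 0.0165 in edgeR) and Nfkb1 (adjusted p = 0.0269 in edgeR) were called. Of the 953 calls 340 could be tested there, and 1 was called in the opposite direction. Without 1 library Csf1r ran from -0.14 to 0.66 and Nfkb1 from -0.68 to 0.18 and neither was called. In microglia-poor cells B2m was 0.079 without a filter. Against Cd209a cells Lgmn was -0.085 with free RNA subtracted, and Csf1r (-0.82), Ctsb (-1.22) and Ctss (-0.18) changed sign with microglia-rich cells left out. The cause was not tested. All values are log2 fold changes.

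The test of whether the LPS change differs between gated and Cd209a cells, and the comparison of the classes within LPS libraries, could not be run, since no LPS library held 5 Cd209a cells. Every library held at least 10 gated cells, so a minimum of 10 changed no call. Depth limited the saline pools most, where 3 UMIs stood for up to 83.9 CPM in the pools of all gated cells. In the microglia-poor saline pools that were tested they stood for 186.5, 100.3 and 129.4 CPM.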
